A study of Mus musculus with 4 samples.

Results

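Shortening and uridylation of the poly(A) tail remove maternal mRNAs from the early embryo, and the genes of that machinery were followed here in late two-cell mouse embryos cultured with a MYC inhibitor. The 10 genes were taken by symbol out of the 24411 genes listed in each library. They are Btg4, Cnot6, Cnot6l, Cnot7, Cnot8, Pabpn1l, Zfp36l2, Zcchc11 (also named Tut4), Zcchc6 (also named Tut7) and Dis3l2, and 10 of the 10 were among the 13549 genes that passed edgeR's filter on low counts. Embryos of the ICR strain were made by in vitro fertilization, cultured in KSOM medium and collected at 36 h post-insemination (hpi). The control group (DMSO) comprised 2 libraries of embryos cultured with the solvent, and the inhibited group comprised 2 libraries of embryos cultured with 6 µM 10074-G5, a small molecule that prevents MYC from pairing with MAX. Culture with either began at 3 hpi by the sample labels and at 6 hpi by the series' design text. Each library was a pool of 10 embryos, so embryos that differed within a pool were averaged, and fewer cells cannot be told apart from less RNA per cell. The libraries were made from polyadenylated RNA, so that fewer copies of an mRNA and copies with tails too short to be captured cannot be told apart either.

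In growing oocytes many mRNAs are stored with short tails, and at meiotic maturation cytoplasmic polyadenylation recruits some of them, Btg4 among them, for translation. BTG4 bridges the CCR4-NOT deadenylase to the translation machinery, CNOT7, CNOT8, CNOT6 and CNOT6L are the catalytic subunits of that complex, and ZFP36L2, which binds AU-rich elements, and PABPN1L, which binds poly(A) tails, bring it to its mRNAs. TUT4 and TUT7 then add uridines to tails that have become short, and DIS3L2 is a 3′-to-5′ exonuclease that prefers uridylated RNA.

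The expected counts summed to between 18206584 and 20718690 fragments per library. DMSO replicate 1 stood apart. In CPM, the count scaled to the TMM-normalized library total, 43.4% of the tested genes differed by more than 2-fold between the DMSO replicates, against 21.9% between the inhibited ones. The 17 listed markers of the two-cell stage were all tested, and their summed level was 3394 CPM in DMSO replicate 1 and 7268 CPM in DMSO replicate 2, against 9183 and 9326 CPM in the inhibited replicates. Of 16 cumulus and granulosa markers, 4 (Inhba, Amh, Foxl2 and Ptx3) were at 0 in the 4 libraries. Their sum was 135 and 58.7 CPM in DMSO and 32.0 and 36.3 CPM in inhibited embryos. Most of the DMSO sums came from Gja1 (86.6 and 28.0 CPM) and Amhr2 (41.1 and 13.8 CPM). In inhibited embryos Gja1 was at 7.56 and 15.5 CPM and Amhr2 at 8.95 and 7.01 CPM. None of the other tested markers of this list was highest in DMSO replicate 1. Of 10 spermatid markers, 5 (Prm1, Tnp2, Smcp, Spata18 and Gapdhs) were at 0 in the 4 libraries, and the sums lay between 1.68 and 7.70 CPM. The part of these differences in the results below was not tested, and the values of the 10 genes, of the list medians and of the other named genes are therefore also given without DMSO replicate 1, in which case the remaining DMSO library is assumed to vary like the inhibited ones.

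Because cytoplasmic polyadenylation acts through U-rich elements near the end of the 3′ UTR, the last such element of the 3′ UTR was located in each gene. The element was searched as TTTTAT or TTTTAAT on the transcribed strand of GENCODE M21 transcripts (GRCm38), and it is shown in capitals with flanking bases to 30 bases in all for the adaptor and 3 of the deadenylases.
Btg4: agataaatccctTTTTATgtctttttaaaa
Cnot8: attatttatgtTTTTAATtttgtaaaataa
Cnot7: ctttgcaatctaTTTTATatatattgacaa
Cnot6l: ttaaatgttgacTTTTATggtgcagcctat
These stretches lie at chr9:51119797-51119826 (plus strand), chr11:58118546-58118575 (plus), chr8:40492853-40492882 (minus) and chr5:96072106-96072135 (minus), respectively. By the ends of the GENCODE transcripts, the element stood 67 bases from the end of the 3′ UTR in Btg4 and 38 bases from it in Cnot8. These were the 2 of 10 genes that had one within the last 100 bases. Such an element was present there in 19.3% of the 12681 tested genes with an annotated 3′ UTR. The span of the Btg4 gene given below ends further downstream, at chr9:51119924, so the distance in Btg4 depends on the annotation. In Cnot7 the last element lay 331 bases and in Cnot6l 1791 bases before the end, and in the other genes with one it lay between 220 and 817 bases before it. Pabpn1l had none in its 263 bases of 3′ UTR.

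The promoters were read to see whether the genes carry the E-box CACGTG, the letters that MYC with MAX is known to bind. RefSeq (GRCm38.p6) gave 15 windows of 300 bases, from 250 before to 50 after a start site. They covered 8 of the 10 genes, all but Cnot7 and Zfp36l2. Some windows of Cnot6l, Cnot8 and Zcchc6 overlap within the gene, so their shared bases were searched more than once. CACGTG, which reads the same on both strands, was found in 0 of the 15 windows and in 7.15% of 32851 promoter windows. CCAAT, searched on both strands, was found in 5 of the 15 windows, from Btg4, Cnot6, Zcchc11 and Zcchc6, and in 37.4% of all. The 250 bases before the start site are printed with CG in capitals for the oocyte genes Btg4 and Pabpn1l and for the widely expressed Cnot6, since the windows differed widely in this dinucleotide.
Btg4: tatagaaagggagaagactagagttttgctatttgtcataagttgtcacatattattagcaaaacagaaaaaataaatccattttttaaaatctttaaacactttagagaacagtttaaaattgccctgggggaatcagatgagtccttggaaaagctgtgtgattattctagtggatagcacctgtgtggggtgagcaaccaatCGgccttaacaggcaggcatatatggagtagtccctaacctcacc
Pabpn1l: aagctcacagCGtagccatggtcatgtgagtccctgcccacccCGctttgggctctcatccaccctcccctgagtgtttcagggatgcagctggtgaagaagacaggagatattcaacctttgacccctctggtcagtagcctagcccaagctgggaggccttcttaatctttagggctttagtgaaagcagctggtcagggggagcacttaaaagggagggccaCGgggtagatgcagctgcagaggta
Cnot6: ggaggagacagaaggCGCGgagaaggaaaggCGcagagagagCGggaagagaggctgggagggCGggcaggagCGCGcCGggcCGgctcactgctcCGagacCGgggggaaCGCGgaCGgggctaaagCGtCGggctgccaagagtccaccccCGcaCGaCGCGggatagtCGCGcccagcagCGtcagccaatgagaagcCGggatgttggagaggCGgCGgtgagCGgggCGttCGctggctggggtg
They lie at chr9:51115751-51116000 (plus strand), chr8:122622736-122622985 (minus) and chr11:49712723-49712972 (minus), and the Btg4 stretch lies inside the annotated span of its gene. The full window held 1 CG in Btg4, 5 in Pabpn1l and 33 in Cnot6, where the median of all windows was 7. In the other genes the windows held between 18 and 49, except for the most upstream window of Cnot8, which held 3.

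The first comparison asked whether these mRNAs took a larger or smaller share of the libraries in inhibited than in control embryos. CPM and FPKM are relative to the library, so more copies of an mRNA cannot be told apart from fewer copies of others. By mean, 7 of the 10 genes were higher in inhibited embryos (Btg4, Cnot6, Cnot6l, Cnot7, Pabpn1l, Zfp36l2 and Dis3l2) and 3 were lower (Cnot8, Zcchc11 and Zcchc6). The groups did not overlap in CPM for 6 of the 7 higher genes, all but Pabpn1l, and for the 3 lower genes, whereas 28.9% of all tested genes were higher and 28.3% lower without overlap. None of these differences was significant. edgeR's quasi-likelihood test called 0 of the 10 genes at an adjusted p under 0.05 with a log2FC beyond 1, as it called 0% of all tested genes in either direction, and it gave 0 of the 10 an unadjusted p under 0.05, against 14.9% of all tested genes. DESeq2 with effective lengths called 0 of the 8 genes to which it gave an adjusted p, and left that of Pabpn1l and Dis3l2 empty, against calls for 0.45% of 18208 genes higher and 2.34% lower. It gave 2 of the 10 (Btg4 and Cnot7) an unadjusted p under 0.05, as it did 15.5% of all its genes. The median log2FC of the 10 genes was 0.69, beside 0.04 for all tested genes, and it was 0.47 without DMSO replicate 1.

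**Figure D1:**
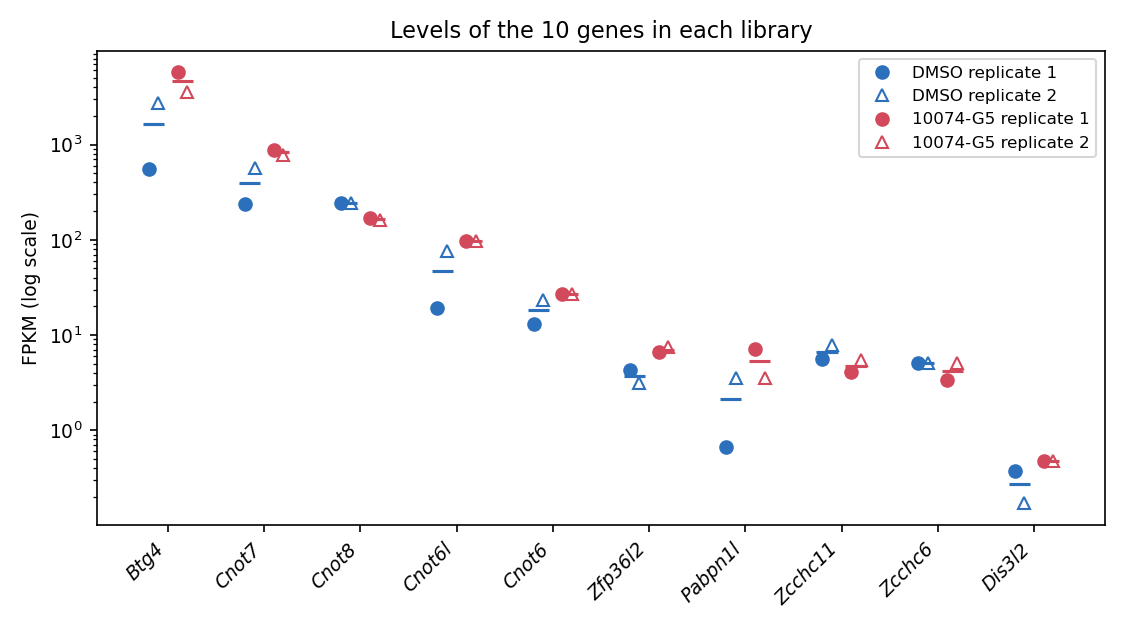
FPKM of the 10 genes on a log axis in each library, with DMSO libraries in blue, inhibited (10074-G5) libraries in red, circles for replicate 1, triangles for replicate 2 and bars for group means. The genes span from 0.17 FPKM for Dis3l2 to 5737 FPKM for Btg4, and DMSO replicate 1 lies lowest for Btg4, Cnot7, Cnot6l, Cnot6 and Pabpn1l.

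Btg4 (chr9:51102147-51119924), the adaptor, was the most abundant of the genes in each library. DMSO replicates 1 and 2 held 551 and 2738 FPKM and inhibited replicates 1 and 2 held 5737 and 3580 FPKM, from 10889, 51379, 123266 and 73172 fragments. The groups did not overlap, but the DMSO libraries differed by 4.17-fold in CPM, and on the log2 scale DMSO replicate 2 lay nearer to both inhibited libraries than to its own replicate. The mean was 1645 ± 1546 FPKM in DMSO and 4659 ± 1525 FPKM in inhibited embryos (SD, n = 2). The log2FC was 1.45 (SE 0.68), with an adjusted p (Benjamini-Hochberg) of 0.352 by edgeR's quasi-likelihood test and of 0.0885 by DESeq2 with effective lengths. With DMSO replicate 1 left out its log2FC was 0.77. With DMSO replicate 2 left out it was 2.82, and DMSO replicate 1 was then the only control. Among all listed genes Btg4 ranked 272nd by FPKM in DMSO replicate 1 and 20th in DMSO replicate 2, and it ranked 8th and 15th in the inhibited replicates. Its mRNA was thus among the most abundant of the embryo in 3 of the 4 libraries.

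The catalytic subunits did not share a direction. CNOT7 and CNOT8 are the close paralogs of the CAF1 type, of which a CCR4-NOT complex holds one or the other. Cnot7 (chr8:40492538-40515847) was measured at 236 and 561 FPKM in DMSO and at 883 and 785 FPKM in inhibited embryos. The inhibited libraries both lay above the DMSO libraries, with a log2FC of 0.96 (SE 0.45) and an edgeR adjusted p of 0.351. Without DMSO replicate 1 the log2FC was 0.57, and with DMSO replicate 1 as the only control it was 1.54. The gene overlaps Zdhhc2 and Vps37a on the opposite strand, and since the library kit does not mark strand, reads from the shared bases cannot be told apart.

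Cnot8 (chr11:58092794-58118597) was measured at 244 and 242 FPKM in DMSO and at 169 and 163 FPKM in inhibited embryos. Here the replicates of each group were close, DMSO replicate 1 included, and the inhibited libraries were lower without overlap. The log2FC was -0.70 (SE 0.35), with an edgeR adjusted p of 0.377, and its leave-one-out values ran from -0.82 to -0.54, the latter without DMSO replicate 1. This was the narrowest such range of the 4 deadenylase genes, in the direction opposite to Cnot7.

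The CCR4-type subunits CNOT6 and CNOT6L were both higher by mean. Cnot6l (chr5:96070333-96164198) was measured at 19.1 and 75.3 FPKM in DMSO and at 96.4 and 98.1 FPKM in inhibited embryos. The inhibited libraries differed by less from each other than from either control, while the DMSO libraries differed by 3.32-fold in CPM. The log2FC was 0.97 (SE 0.56), with an edgeR adjusted p of 0.419. Leaving out DMSO replicate 1 gave 0.37, and DMSO replicate 1 as the only control gave 2.08. Cnot6 (chr11:49671497-49713401) was measured at 13.1 and 23.5 FPKM in DMSO and at 27.1 and 27.2 FPKM in inhibited embryos. The groups did not overlap, and the log2FC of 0.45 (SE 0.37) had an edgeR adjusted p of 0.553 and was 0.20 without DMSO replicate 1. The transcript length that RSEM weighted by abundance moved by at most 49.9 bases (Cnot6) over the 4 libraries and was constant for the 7 genes other than Cnot6, Cnot6l and Cnot7.

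**Figure D2:**
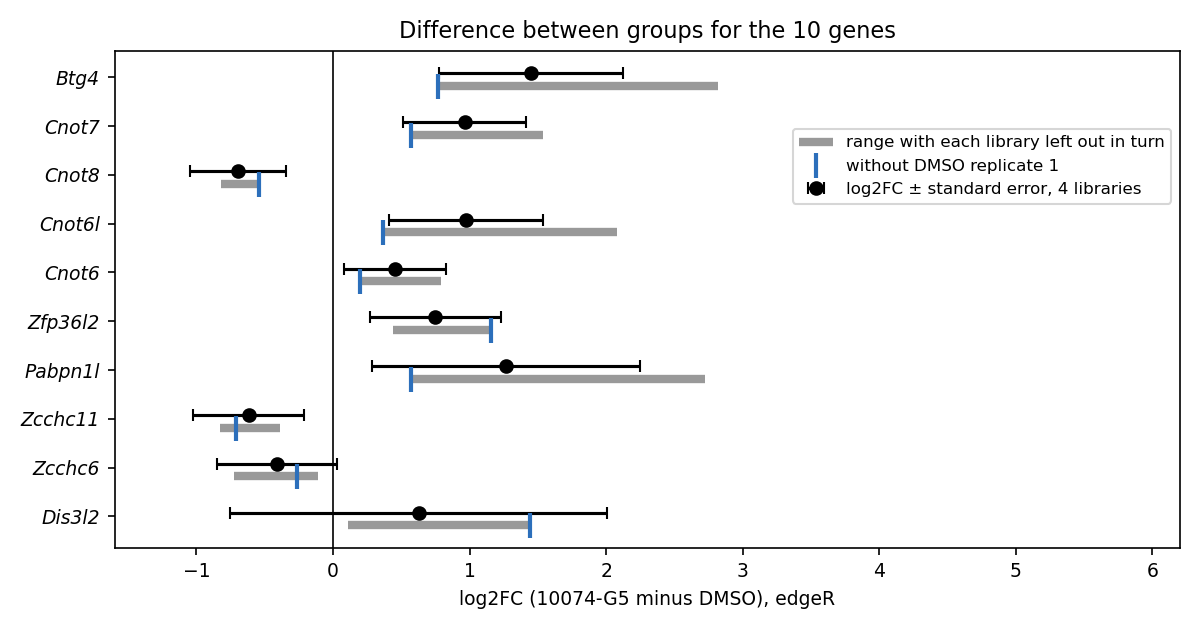
Difference between inhibited and DMSO embryos for each gene as edgeR's log2FC (black points, 4 libraries; bars, standard error), with the range over fits that each leave out 1 library (grey) and the value without DMSO replicate 1 (blue). Btg4, Cnot6l and Pabpn1l have the widest grey ranges, from 0.77, 0.37 and 0.57 up to 2.82, 2.08 and 2.72, and the ranges of Cnot8, Zcchc11 and Zcchc6 lie below 0.

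Ratios of paralogs within a library do not depend on the scaling of that library. The ratio of Cnot7 to Cnot8 FPKM was 0.970 and 2.32 in DMSO replicates 1 and 2 and 5.24 and 4.81 in the inhibited replicates. Both inhibited libraries lay above both controls, and on the log2 scale the means were 0.58 ± 0.89 and 2.33 ± 0.09 (SD, n = 2), a difference of 1.74. Against DMSO replicate 2 alone the difference was 1.11. The ratio of Cnot6l to Cnot6 was 1.45 and 3.21 in DMSO and 3.55 and 3.61 in inhibited embryos, a log2 difference of 0.73 that was 0.16 against DMSO replicate 2 alone. The ratio of Zcchc11 to Zcchc6 was 1.10 and 1.53 in DMSO and 1.20 and 1.07 in inhibited embryos, with the groups overlapping. The exact permutation test, two-sided, gave p = 0.333 for the Cnot7 and Cnot6l ratios and 0.667 for the Zcchc11 ratio, and 0.333 is the smallest p that 2 against 2 libraries allow. These 3 pairs were the ones compared, and adjustment over them cannot lower a p.

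**Figure D3:**
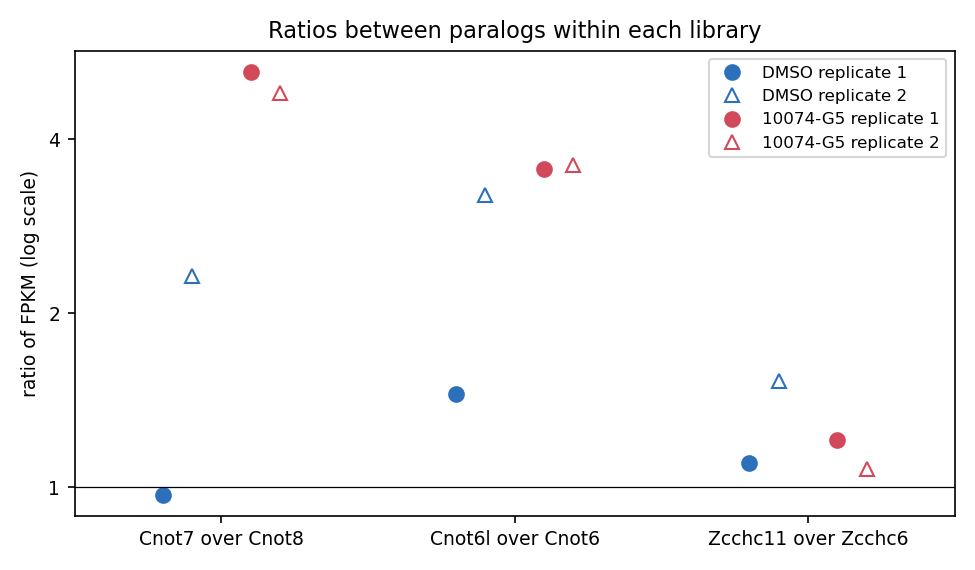
Ratio of the FPKM of paralogs within each library, on a log axis, for Cnot7 over Cnot8, Cnot6l over Cnot6 and Zcchc11 over Zcchc6, with circles for replicate 1 and triangles for replicate 2. The Cnot7 over Cnot8 ratio is 0.970 and 2.32 in DMSO (blue) and 5.24 and 4.81 in inhibited embryos (red), whereas the Zcchc11 over Zcchc6 ratios of the groups overlap.

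The genes that bring the complex to its targets were measured at low levels. Zfp36l2 (chr17:84183924-84187947), which binds AU-rich elements, was at 4.30 and 3.14 FPKM in DMSO and at 6.62 and 7.42 FPKM in inhibited embryos. Here DMSO replicate 2, not replicate 1, was the lowest library. The log2FC was 0.75 (SE 0.48), with an edgeR adjusted p of 0.454, and was 1.16 without DMSO replicate 1. An antisense annotation covers part of Zfp36l2, which a kit without strand cannot separate. Pabpn1l (chr8:122619471-122622735), a poly(A)-binding protein of the oocyte, was at 0.66 and 3.56 FPKM in DMSO and at 7.05 and 3.50 FPKM in inhibited embryos. It rested on 11, 56, 127 and 60 fragments in that order, with exact Poisson 95% intervals of 5.49 to 19.7, 42.3 to 72.7, 106 to 151 and 45.8 to 77.2 that cover counting error only. DMSO replicate 2 and inhibited replicate 2 were alike and the groups overlapped, so the log2FC of 1.27 (SE 0.98, edgeR adjusted p 0.531) rested on the replicates numbered 1 and was 0.57 without DMSO replicate 1. Pabpn1l lies within Gm20388 on the opposite strand.

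The uridylation genes were lower by mean, and the exonuclease was near the limit of detection. Zcchc11 (chr4:108459410-108559415), which encodes TUT4, was measured at 5.58 and 7.77 FPKM in DMSO and at 4.07 and 5.45 FPKM in inhibited embryos. The highest inhibited library lay just below the lowest control, with a log2FC of -0.62 (SE 0.41), an edgeR adjusted p of 0.468 and a log2FC of -0.71 without DMSO replicate 1. Zcchc6 (chr13:59771876-59823169), which encodes TUT7, was measured at 5.07 and 5.09 FPKM in DMSO and at 3.38 and 5.08 FPKM in inhibited embryos. Inhibited replicate 2 was at the control level, below it in CPM and between the controls in FPKM, and the log2FC of -0.41 (SE 0.44, edgeR adjusted p 0.654) was -0.11 without inhibited replicate 1 and -0.27 without DMSO replicate 1. Zcchc6 overlaps Gm49354 on the same strand. Its expected counts were not whole, which RSEM writes where fragments are shared between annotations. Whether they were shared with Gm49354 was not tested. Dis3l2 (chr1:86701924-87050097) was measured at 0.37 and 0.17 FPKM in DMSO and at 0.47 and 0.48 FPKM in inhibited embryos. These levels were 20, 9, 28 and 27 fragments, with exact Poisson 95% intervals of 12.2 to 30.9, 4.12 to 17.1, 18.6 to 40.5 and 17.8 to 39.3. A difference in Dis3l2 was not detectable at this depth (log2FC 0.63, SE 1.38, edgeR adjusted p 0.845, and log2FC 1.44 without DMSO replicate 1).

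By mean FPKM in control embryos, the order of levels was Btg4, Cnot7 (399), Cnot8 (243), Cnot6l (47.2), Cnot6 (18.3), Zcchc11 (6.68), Zcchc6 (5.08), Zfp36l2 (3.72), Pabpn1l (2.11) and Dis3l2 (0.27). Neighbours whose control libraries overlapped were Btg4 and Cnot7, Cnot7 and Cnot8, Cnot6l and Cnot6, and Zfp36l2 and Pabpn1l. In inhibited embryos the first 5 places were unchanged and no neighbours among them overlapped, with Btg4 at 4659, Cnot7 at 834, Cnot8 at 166, Cnot6l at 97.2 and Cnot6 at 27.1 FPKM. Zfp36l2 (7.02 FPKM) and Pabpn1l (5.28 FPKM) then stood above Zcchc11 (4.76 FPKM) and Zcchc6 (4.23 FPKM), although Zfp36l2 overlapped Pabpn1l, Pabpn1l overlapped Zcchc11 and Zcchc11 overlapped Zcchc6. Over the 4 libraries, the lowest level of Btg4, Cnot7 or Cnot8 was 163 FPKM and the highest of Zcchc11, Zcchc6 or Dis3l2 was 7.77 FPKM.

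Maternal transcripts were then set beside this machinery, with a list of 78 oocyte genes that were all tested. Whether the machinery acts on the listed transcripts was not tested. For no listed gene were copies left from the oocyte told apart from copies newly transcribed by the embryo. A higher or lower level is therefore not by itself retention or loss of maternal mRNA. Of the 78, 70 were higher and 8 lower in inhibited embryos, with a median log2FC of 0.79, whereas 6973 of all 13549 tested genes (51.5%) were higher. Without overlap between the groups 54 were higher and 3 lower, where 28.9% and 28.3% of all tested genes were. The unadjusted p of edgeR was under 0.05 for 21 of the higher genes and 1 of the lower (Zp3), against 4.72% and 10.1% of all tested genes, and edgeR called 0 of the 78. DESeq2 with effective lengths called 10 of them higher, against 0.45% of its 18208 genes. These were Oosp1, Nobox, Oog1, Obox5, Tcl1b1, Tcl1b2, Tcl1b3, Tcl1b4, Tcl1b5 and Kpna7. Several of them belong to families of similar copies, the Tcl1b genes among them, between which reads can be lost or shared. Without DMSO replicate 1, 65 were higher and 13 lower, against 7026 and 6523 of all tested genes. The median of the list was then 0.41, and without DMSO replicate 2 it was 1.63.

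Of the most abundant transcripts of the maternal list, 4 were higher and 2 lower. The Omt2b level was 14509 and 22367 FPKM in DMSO and 35927 and 33514 FPKM in inhibited embryos, with Omt2a (log2FC 0.87), Tcl1 (1.28), which encodes an AKT coactivator, and Oog3 (1.35) differing the same way. Dppa3, which protects the maternal genome from demethylation, was instead at 23548 and 15004 FPKM in DMSO and at 11263 and 12132 FPKM in inhibited embryos (log2FC -0.89). Ccnb1, the cyclin of M phase, was also lower by mean (2632 and 1773 against 1207 and 1499 FPKM, log2FC -0.87). With DMSO replicate 1 left out, the log2FC was 0.64 for Omt2b, 0.59 for Omt2a, 0.84 for Tcl1, 0.77 for Oog3, -0.35 for Dppa3 and -0.39 for Ccnb1. The maternal genes with the smallest p by edgeR were Nobox, an oocyte transcription factor, and Oog1. Nobox was at 6.38 and 14.5 FPKM in DMSO and at 40.7 and 39.3 FPKM in inhibited embryos, with a log2FC of 1.84 (SE 0.46) by edgeR and an adjusted p of 0.0135 by DESeq2. Oog1 was at 282 and 542 FPKM in DMSO and at 1555 and 1163 FPKM in inhibited embryos, with a log2FC of 1.62 (SE 0.43) by edgeR and an adjusted p of 0.0115 by DESeq2. The edgeR log2FC without DMSO replicate 1 was 1.46 for Nobox and 1.33 for Oog1.

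Each gene was next placed beside the maternal list library by library, as its log2 CPM less its mean over the 4 libraries. The median of the 78 maternal transcripts was -1.07 and 0.05 in DMSO replicates 1 and 2 and 0.46 and 0.48 in the inhibited replicates, while the same median over all tested genes lay between -0.05 and 0.07. The median of the 17 two-cell markers, which are transcribed by the embryo itself, took the same order over a wider range (-1.43, 0.22, 0.63 and 0.62). Of these markers 15 were higher, with a median log2FC of 0.94 that was 0.33 without DMSO replicate 1. Whether the embryo also transcribed genes of the maternal list was not tested. Btg4 (-1.90, 0.16, 1.23 and 0.52), Cnot6l (-1.47, 0.26, 0.61 and 0.61) and Cnot7 (-1.01, -0.03, 0.62 and 0.42) had the same order of groups, with DMSO replicate 1 lowest, DMSO replicate 2 next and the inhibited libraries highest. Cnot6 followed this order with a smaller range (-0.54, 0.06, 0.26 and 0.23). Cnot8 went the other way (0.47, 0.21, -0.31 and -0.38), and so did Zcchc11 (0.20, 0.43, -0.51 and -0.11) with its highest value in DMSO replicate 2. Zcchc6 (0.34, 0.09, -0.50 and 0.06) was also higher in both DMSO libraries. In Zfp36l2 (-0.04, -0.74, 0.32 and 0.46) and Dis3l2 (0.24, -0.93, 0.35 and 0.34) DMSO replicate 2 was the lowest library. The groups overlapped in Pabpn1l (-1.74, 0.27, 1.24 and 0.22). The summed level of the maternal list was 47990 and 63311 CPM in DMSO and 102124 and 89278 CPM in inhibited embryos. The mRNAs of the BTG4 adaptor and of 3 of its 4 catalytic partners were highest in the inhibited libraries. So were the summed levels of both the maternal list and the two-cell markers. Of all tested genes, 28.9% were higher in the inhibited libraries without overlap, and no correlation was computed over 4 libraries.

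**Figure D4:**
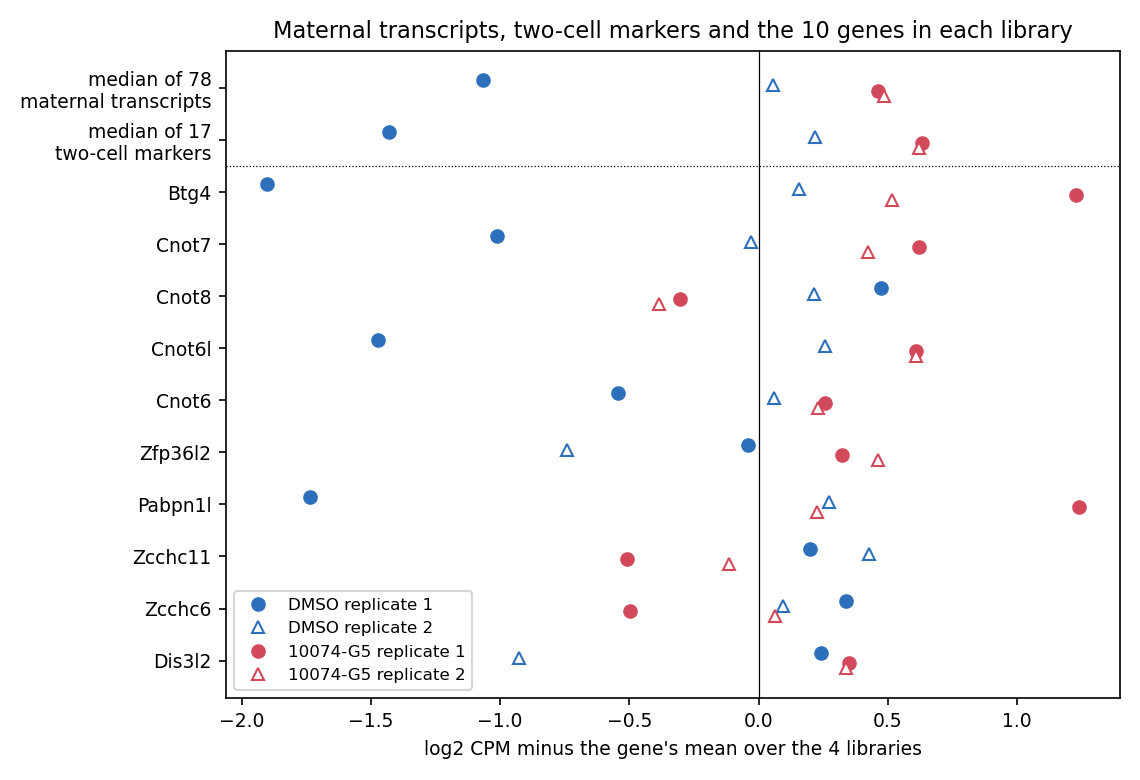
Log2 CPM less the gene's mean over the 4 libraries (horizontal axis) for the median of the 78 maternal transcripts and of the 17 two-cell markers (top rows) and for each of the 10 genes, with DMSO in blue, inhibited libraries in red, filled circles for replicate 1 and open triangles for replicate 2. The maternal and two-cell medians, Btg4, Cnot7, Cnot6l and Cnot6 run from DMSO replicate 1 through DMSO replicate 2 to the inhibited libraries, and Cnot8 has the inhibited libraries lowest, at -0.31 and -0.38.

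Sequence elements that recruit or oppose deadenylation were counted in the 3′ UTRs of the 75 maternal transcripts that have one annotated. The cytoplasmic polyadenylation element lay in the last 100 bases in 21 of them (28%), against 19.3% of all tested genes. TATTTAT, the AU-rich element that ZFP36L2 binds, searched on the transcribed strand, was found in 11 (14.7%), against 28.8% of all. The maternal 3′ UTRs were shorter, with a median of 355 bases against 1025 for all tested genes. Among the 10 machinery genes, whose median 3′ UTR was 1176 bases, TATTTAT was found in 6.

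The rest of the pathway was described with 5 lists. Of 21 other deadenylase genes, which were all tested, 10 were higher and 11 lower (median log2FC -0.13), and 1 had an unadjusted p under 0.05. This was Ccrn4l, listed under its older name and encoding nocturnin, at 50.4 and 36.8 FPKM in DMSO and 23.5 and 25.2 FPKM in inhibited embryos (log2FC -1.01, SE 0.39, and -0.60 without DMSO replicate 1). The median of this list changed sign with the setting, being 0.04 without DMSO replicate 1 and 0.0023 with library totals alone.

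Of 18 genes that recruit deadenylases to mRNAs, 17 were tested, with 10 higher and 7 lower (median log2FC 0.20, and -0.02 without DMSO replicate 1). Ythdf2, which encodes a reader of m6A that brings CCR4-NOT to methylated mRNAs and is needed for maternal mRNA decay, was at 205 and 91.1 FPKM in DMSO and at 49.3 and 50.1 FPKM in inhibited embryos. Its inhibited libraries were nearly identical and lay below both controls, with a log2FC of -1.77 (SE 0.51), an edgeR adjusted p of 0.333 and a DESeq2 adjusted p of 0.0195, which passed the thresholds, and the edgeR log2FC was -0.88 without DMSO replicate 1. Nanos2, an RNA-binding protein of germ cells, was higher by mean (3.42 and 8.11 against 25.6 and 15.4 FPKM, log2FC 1.74, and 1.34 without DMSO replicate 1). Samd4 also had an unadjusted p under 0.05 and is named after its values were seen, with 0 fragments in each DMSO library and 21 and 31 in the inhibited libraries.

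Of 11 poly(A)-binding protein genes 7 were tested, and 2 were higher and 5 lower (median log2FC -0.34, and -0.16 without DMSO replicate 1), none with an unadjusted p under 0.05. Of 14 other tail nucleotidyltransferase genes 13 were tested, and 7 were higher and 6 lower (median 0.06, and 0.15 without DMSO replicate 1). Papola, the nuclear poly(A) polymerase, was at 134 and 95.8 FPKM in DMSO and at 53.7 and 69.7 FPKM in inhibited embryos (log2FC -1.06, SE 0.41, and -0.64 without DMSO replicate 1), and was the 1 gene of this list with an unadjusted p under 0.05.

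Of 19 decapping and exonuclease genes 18 were tested, and 7 were higher and 11 lower (median log2FC -0.40, and -0.19 without DMSO replicate 1). Dis3, the catalytic nuclease of the exosome and a relative of Dis3l2, was at 44.6 and 22.8 FPKM in DMSO and at 8.70 and 14.3 FPKM in inhibited embryos. Its log2FC was -1.74 (SE 0.51), with an edgeR adjusted p of 0.333 and a DESeq2 adjusted p of 0.0271, which passed the thresholds, and the edgeR log2FC was -0.99 without DMSO replicate 1. Lsm5 (log2FC -1.96) and Lsm4 (-1.20), subunits of the ring that binds shortened tails, were lower by mean, whereas Patl1 (1.08), which links that ring to decapping, was higher. The log2FC of these 3 genes without DMSO replicate 1 was -0.74, -1.04 and 0.82. Dcp1a (higher) and Edc3 (lower) had an unadjusted p under 0.05 as well and are named after their values were seen. Dcp1a had 423 and 1045 fragments in DMSO against 1963 and 1756 in inhibited embryos, and Edc3 had 114 and 69 against 5 and 1. The other Lsm genes of the list are likewise named after their values were seen, and did not share a direction. Lsm1 (log2FC 0.82) and Lsm6 (0.11) were higher by mean, and Lsm2 (-0.80), Lsm3 (-0.62) and Lsm7 (-0.34) were lower.

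**Figure D5:**
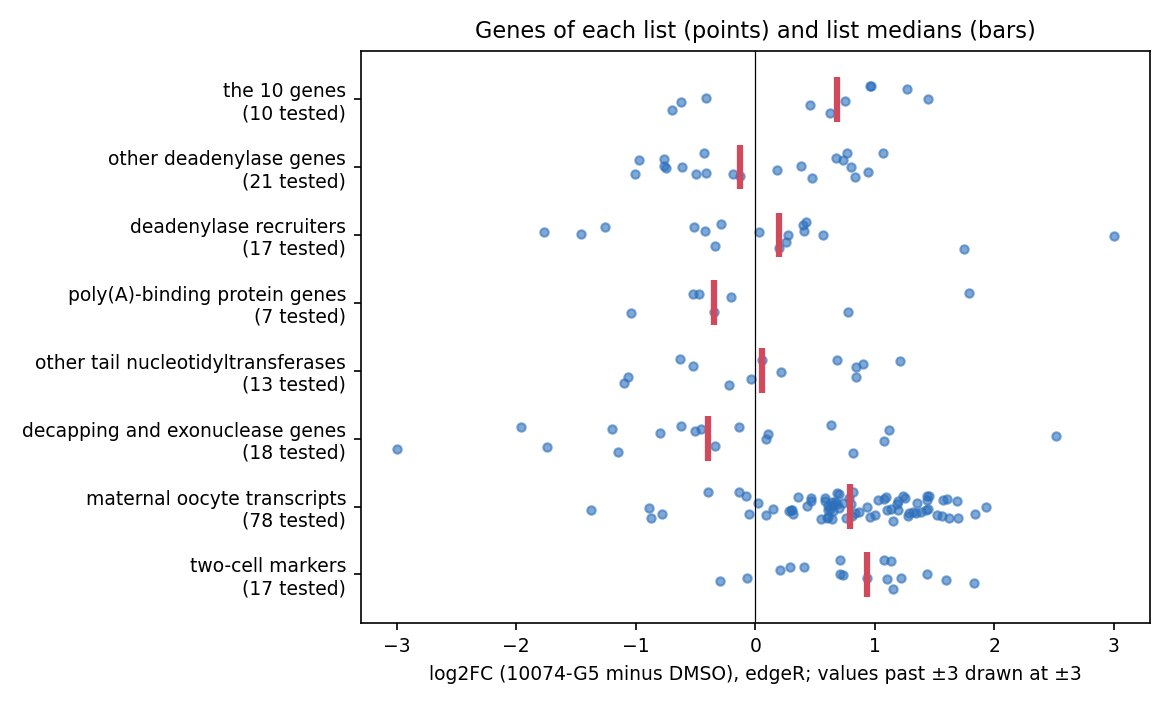
EdgeR's log2FC between inhibited and DMSO embryos for the tested genes of each list, 1 point a gene, with red bars at the medians and the values of Samd4 (higher) and Edc3 (lower), which lie past the axis, drawn at its ends. The maternal list has its median at 0.79, the 10 genes theirs at 0.69, the two-cell markers theirs at 0.94, and the 5 lists of other pathway genes theirs between -0.40 and 0.20.

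The genes whose pattern over the 4 libraries lay nearest to an adaptor, a deadenylase and a uridylyltransferase were sought among 5155 or 5156 tested genes with a mean of at least 10 FPKM. The measure was the Euclidean distance between the log2 CPM values less each gene's mean. Nearest to Btg4 were LOC100502896 (distance 0.09), A730082K24Rik (0.11) and Timd4 (0.13), which shared its low DMSO replicate 1 and its high inhibited replicate 1. Nearest to Cnot6l were Herpud2 (0.04), Xlr4b (0.05) and Snx9 (0.07), with inhibited libraries at a like level and DMSO replicate 1 apart. Nearest to Zcchc11 were H2afj (0.03), Zfp955a (0.05) and Lonp2 (0.05), which were lower in the inhibited libraries. The likeness of all these genes follows from how they were sought, over 4 libraries alone.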

How the data were processed

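RNA-seq of 4 pools of embryos was used. The authors sequenced read pairs of a SMART-Seq v4 PLUS library on a HiSeqX, aligned them to mm10 with STAR (version 2.7.10.a), discarded reads that mapped to several places and estimated gene levels by RSEM (version 1.3.3). The deposited expected count estimates the fragments of a gene without normalization, with 3.97% to 4.49% of values not whole. The FPKM and the TPM deposited by the authors are scaled to effective transcript length and library, the transcript lengths were deposited with them, and TPM served to check the order of levels.

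Expected counts were rounded and tested with edgeR 4.0.16 (R 4.3.3) after filterByExpr (minimum count 10, minimum total 15) and TMM scaling (factors 0.873 to 1.06), with the robust quasi-likelihood test and Benjamini-Hochberg adjustment over 13549 genes. The smallest adjusted p was 0.333. A call needed a log2FC beyond 1 and an adjusted p under 0.05. Alternatives used DESeq2 1.42.0 and limma 3.58.1. Groups and replicate numbers came from the labels, which do not say whether same-numbered libraries of the groups belong together. Nothing stated that the DMSO and inhibited replicates were separate inseminations, so p-values measure the spread between these pools. Named were all 10 genes, up to 4 genes a pathway list with the smallest unadjusted p under 0.05 and a mean FPKM of at least 1, the 6 most abundant maternal genes in control embryos and the 2 with the smallest p, and the 3 nearest genes to Btg4, Cnot6l and Zcchc11. The 10 genes, lists and tests were chosen with earlier results of these data known, and the lists were written from general knowledge. Tested on simulated data (3 runs, log2 changes of 2 in 200 among 13549 genes), edgeR recovered 14.2% and DESeq2 39.3% of the changes, with 6.59% and 31.4% false calls. Protein sequences were not used here, and 1 gene that the rule would name and 1 sequence element that was searched are not reported here.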

Additional observations from a re-analysis of the deposited data

How the results depend on the processing

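Over 137 values of the 10 genes under other tools, normalizations, filters, units, the replicate block and each library left out, 0 changed direction. None of the 10 genes was called in any fit of all 4 libraries. Library totals in place of TMM factors moved the median log2FC of all genes from 0.04 to 0.17. Of all genes, edgeR called 0 higher and 0 lower, DESeq2 called 95 and 471 of the same genes, 87 and 437 without the filter, and 82 and 426 with effective lengths, edgeR without a filter called 165 and 479, and leaving out a library gave 0 to 2147 higher and 0 to 2025 lower, the highest without DMSO replicate 2. Of the 10 genes, 0 had an unadjusted p under 0.05 by edgeR (14.9% of all genes), against 2 by DESeq2 on the same genes (19.8% of all), without the filter (15.5%) and with effective lengths (15.5%), 3 by edgeR without a filter (15.8%), 1 with at least 10 counts in every library (19.1%), 2 by limma on log2(FPKM + 1) (16.8%) and 1 by limma on log2(FPKM + 0.1) (15.3%). With a library left out 0 to 6 of the 10 had one and 0 to 3 were called, with 4 having one without DMSO replicate 1 (13.9% of all genes) and 6 without DMSO replicate 2 (45% of all). With the replicate number as a block, 12 genes were called higher and 32 lower, 0 of the 10 genes were called and 1 had an unadjusted p under 0.05 (13.3% of all genes), and no direction changed. Deviations from the group means correlated at r = -0.03 over genes between the replicates numbered 1. With 2 libraries a group, this cannot show whether the numbers pair the samples. The list medians moved as follows, and the cause was not tested. Library totals, limma on log2(FPKM + 1) and limma on log2(FPKM + 0.1) gave 0.0023, 0.0081 and 0.0087 for the other deadenylase genes (-0.13 with TMM factors), 0.20, 0.19 and 0.20 for the other nucleotidyltransferases (0.06), and -0.25, -0.26 and -0.27 for the decapping and exonuclease genes (-0.40). Limma on log2(FPKM + 1) gave -0.19 for the poly(A)-binding protein genes (-0.34). With a library left out the medians ran from -0.21 to 0.054 for the other deadenylase genes, -0.015 to 0.51 for the recruiters, -0.48 to -0.16 for the poly(A)-binding protein genes, -0.47 to -0.19 for the decapping and exonuclease genes, and 0.41 to 1.63 for the maternal list. The TPM left the order of the 10 levels as it was with FPKM. For Dis3l2 the counting interval of DMSO replicate 1 overlapped those of both inhibited libraries, whereas for Pabpn1l those of the replicates within a group did not.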
